A study of Mus musculus with 6 samples.

Results

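The miRNAs described here are mmu-miR-199a-5p, mmu-miR-199a-3p, mmu-miR-214, mmu-miR-143 and mmu-miR-145, 5 of the 611 mouse miRNA entries on the array. They were chosen by name: every spot that was no control and whose entry name, without a version suffix, equalled one of these names, with the opposite (star) arms left out. They were measured in MCT, a line of mouse kidney tubule cells whose strain background is SJL H-2S. Control cells (3 arrays) were set against cells given TGFβ, the cytokine transforming growth factor beta, at 3 ng/ml for 72 hours (3 arrays). Fetal calf serum in the medium was lowered from 10% to 0.5% on the day before the cytokine, and the labels name no stimulant for the control cells. The labels describe a single cell line and do not say that the replicates were separate cultures, so p-values measure the spread between these arrays, which may be technical.

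The miRNAs come from a pair of gene clusters known from connective tissue and muscle, and miR-199a also from a gene outside them, Mir199a-1. The Mir199a-2 and Mir214 genes are transcribed in mesenchyme and fibroblasts from a long noncoding RNA, Dnm3os, that is activated by the transcription factor Twist1. Both miR-199a and miR-214 have been linked to organ fibrosis. The miR-143 and miR-145 genes are transcribed together, are abundant in smooth muscle, and are driven there by serum response factor and myocardin. TGFβ is known to induce both clusters in mesenchymal cell types, and tubular cells given TGFβ are a common model of epithelial cells taking on mesenchymal traits.

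The mature sequences are shown because the seed (bases 2 to 8, in capitals) decides which mRNAs a miRNA pairs with, and because some of these miRNAs cannot be told from a copy at another locus. Sequences and positions are those of RefSeq on GRCm38.p6, and 3 of the 5 miRNAs matched a sequence there. The array headers name mm9, and no coordinates were taken from the array.
mmu-miR-199a-5p: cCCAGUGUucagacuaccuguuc
mmu-miR-199a-3p: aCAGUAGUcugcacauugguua
mmu-miR-199b-3p: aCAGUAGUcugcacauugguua
mmu-miR-214-3p: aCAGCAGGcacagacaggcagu
mmu-miR-761: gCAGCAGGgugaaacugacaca

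The arms miR-199a-5p and miR-199a-3p have different seeds, CCAGUGU and CAGUAGU. Both are cut from Mir199a-2 (5p arm at chr1:162217844-162217866, 3p arm at chr1:162217883-162217904, plus strand) and with the same letters from Mir199a-1 (chr9:21496537-21496559 and chr9:21496498-21496519, minus strand). The 3p arm of Mir199b (chr2:32318524-32318545, plus strand) has the same 22 bases, so the miR-199a-3p entry cannot tell the RNA of these 3 genes apart. The array entry miR-214 was taken as miR-214-3p (chr1:162223438-162223459, plus strand), the arm that carried the unmarked name in older nomenclature. Its seed CAGCAGG was shared by 1 other RefSeq mouse miRNA, miR-761, which was on the array and was well above background on 0 of 6 arrays. In the gene table of the same assembly Mir199a-2 and Mir214 lay inside Dnm3os and inside the span of Dnm3, a dynamin gene. Mir199a-1 lay inside the span of Dnm2 and Mir199b inside that of Dnm1, so that each miR-199 gene lay within the span of a dynamin gene. These placements compare positions without regard to strand, so they do not show that the dynamin transcripts carry the miRNAs. Mir143 and Mir145a both lay inside Carmn, a long noncoding RNA gene of smooth muscle and heart.

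The Mir199a-2 hairpin (chr1:162217814-162217923, plus strand) is shown with its mature arms in capitals, since its arms are separate entries on the array.
Mir199a-2 hairpin: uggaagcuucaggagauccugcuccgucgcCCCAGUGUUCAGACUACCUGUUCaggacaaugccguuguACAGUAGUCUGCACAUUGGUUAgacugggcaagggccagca

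None of the 5 miRNAs was well above background in MCT cells, with or without TGFβ. A probe counted as well above background on an array where at least 0.5 of its spots carried the scanner software's flag for that. A miRNA counted if either or any probe for it met this. The count was 0 of 5 on each of the 6 arrays, against 107 of 611 mouse entries on at least 1 array (17.5%). The shares of all entries were 11.5% on all 3 control arrays and 13.7% on all 3 TGFβ arrays. The software's own call per miRNA gave 0 of 5 on every array too, against 22.1% of all entries on at least 1 array. No level relative to another miRNA and no fold between the groups is given, since a signal under the limit has only an upper bound.

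The flag set a sharp limit on each array. Among mouse spots not marked as outliers, the dimmest flagged spot read 25.8, 26.5 and 25.8 intensity units on controls 1 to 3. It read 25.1, 25.9 and 24.3 on TGFβ 1 to 3, and the brightest unflagged spot lay just under it on each array (between 24.2 and 26.5). The array also holds 434 negative control spots, whose probes match no mouse miRNA by design. Without outliers they had means between 1.83 and 3.23 units and a spread (SD) between 5.28 and 5.71, and 0 of them were flagged on any array. Their 5th to 95th percentiles ran from -7.12 at the lowest to 12.6 at the highest array, so the space between negative controls and the limit was similar on all 6 arrays. Values below 0 arise because the software subtracts a background estimate.

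Each of the 5 miRNAs was read by 2 probes with 10 spots each, which gives 600 spot readings over the 6 arrays. The software marked 22 of these as outliers, and 578 were used. Of these 578 readings, 0 carried the flag, and 3 (0.519%) were above the 95th percentile of the negative controls of their array, where 5% of negative control spots lie by construction. Of the 60 probe means, 55 were below the mean of the negative controls. They ran from -7.14 to 4.75 units, while the dimmest probe mean that counted as well above background on any array was 22.4. Each mean over both probes had a standard error over spots between 0.535 and 1.43 units.

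**Figure D1:**
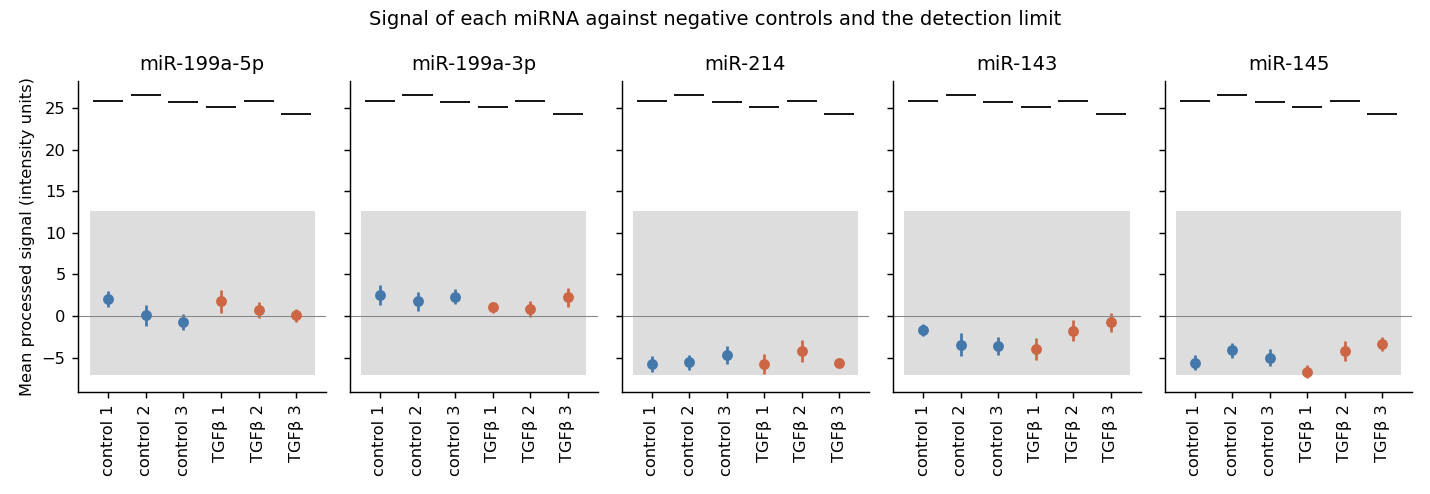
Mean processed signal (intensity units, y axis) of each miRNA on each array (x axis), over both probes without outlier spots, with the standard error over spots. The grey band runs from the lowest 5th to the highest 95th percentile of negative control spots, and the black bars mark the dimmest spot flagged well above background on each array. All 30 means lie between -6.67 and 2.51 units, under bars that start at 24.3.

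The arms of the miR-199a hairpins lay closest to the negative controls. miR-199a-5p, which represses caveolin-1 among other targets, read 2.04, 0.0818 and -0.757 units on controls 1 to 3, against 1.76, 0.696 and 0.0801 on TGFβ 1 to 3. The highest values were on control 1 and TGFβ 1, and the groups overlapped. Relative to the negative controls of the same array its mean was -2.19 ± 2.09 in control cells, and with TGFβ -1.78 ± 1.38 (SD, n = 3), a difference of 0.414 (SE 1.44, exact two-sided permutation p = 0.7). Its largest reading not marked as an outlier was 16.6 on TGFβ 1.

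miR-199a-3p, the arm that is also made from Mir199b, read 2.51, 1.76 and 2.34 units on controls 1 to 3, against 1.08, 0.854 and 2.24 on TGFβ 1 to 3. It was above the negative control mean on control 1 and below it on the other 5 arrays. The means relative to the negative controls were -0.442 ± 1.08 and -1.23 ± 0.601 (SD, n = 3). Their difference of -0.788 (SE 0.714) had an exact two-sided permutation p of 0.4, and the groups overlapped. Between same-numbered arrays it was lower with TGFβ in 3 of 3 pairs, with differences of -1.63, -0.447 and -0.284 units. The exact sign-flip p was 0.25, the smallest that 3 pairs can give. Each of the other miRNAs had both higher and lower values with TGFβ among its pairs. The 3p and 5p entries of miR-199a come from the same hairpins, and neither crossed the limit.

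miR-214, whose gene lies near Mir199a-2 within Dnm3os and which is raised in fibrotic mouse kidney, read -5.76, -5.58 and -4.70 units on controls 1 to 3, against -5.72, -4.21 and -5.70 on TGFβ 1 to 3. All 6 values were under 0, and those of one group lay among those of the other. Relative to the negative controls the means were -7.99 ± 0.708 and -7.83 ± 0.892 (SD, n = 3), a difference of 0.163 (SE 0.658, exact two-sided permutation p = 0.9). Of 117 readings not marked as outliers, 88.0% were under 0, against 32.2% of 2495 negative control readings.

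miR-143, which acts on the actin regulators of smooth muscle, read -1.67, -3.44 and -3.57 units on controls 1 to 3, against -4.00, -1.76 and -0.767 on TGFβ 1 to 3. On this scale TGFβ 3 was the highest and TGFβ 1 the lowest of the 6. Relative to the negative controls, control 1 was the highest (-3.50) and control 2 the lowest (-6.67), so the order of the arrays changed with the background subtracted. The means on that scale were -5.54 ± 1.77 and -4.80 ± 1.13 (SD, n = 3). The difference was 0.738 (SE 1.21, exact two-sided permutation p = 0.6).

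miR-145, which keeps smooth muscle cells differentiated, read -5.59, -4.12 and -5.00 units on controls 1 to 3, against -6.67, -4.18 and -3.38 on TGFβ 1 to 3. Again TGFβ 1 was the lowest and TGFβ 3 the highest array. Relative to the negative controls the means were -7.55 ± 0.281 and -7.37 ± 1.18 (SD, n = 3), with a difference of 0.179 (SE 0.703, exact two-sided permutation p = 0.8). The share of its 114 readings under 0 was 87.7%.

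**Figure D2:**
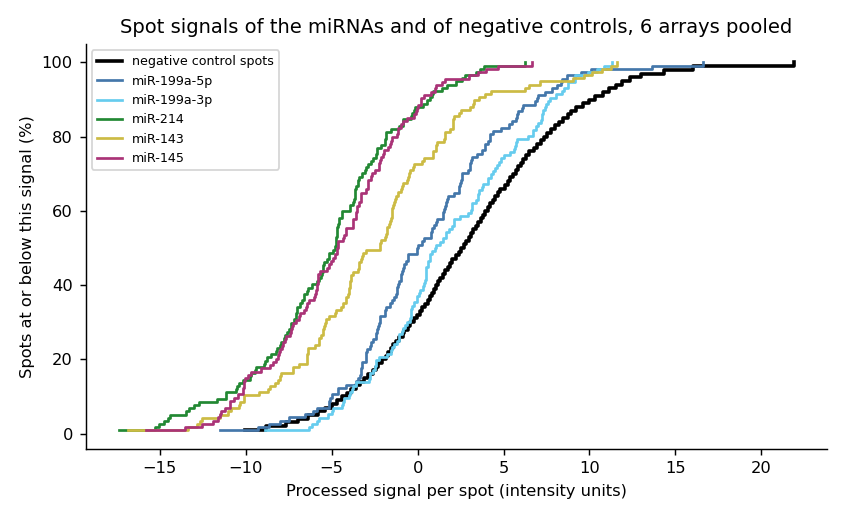
Share of spot readings at or below a given processed signal (intensity units, x axis), for 2495 negative control readings and the readings of each miRNA, outlier spots left out and the 6 arrays pooled. The curves of miR-214 and miR-145 lie farthest to the left (medians -4.82 and -4.66), that of miR-143 between (-2.18), and those of miR-199a-5p (0.00469) and miR-199a-3p (1.03) nearest to the negative controls (2.52).

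Signals under the negative controls were common on this array. Of the 504 mouse entries with 0 arrays well above background, between 72.0% and 85.9% per array lay under the mean of the negative controls, and 62.3% did so on all 6 arrays. Among the 5 miRNAs, miR-214, miR-143 and miR-145 were under it on 6 of 6 arrays and the miR-199a arms on 5 of 6. Averaged over the arrays, the 504 entries ran from -7.74 (5th percentile) to 3.78 (95th percentile) relative to the negative controls, with a median of -3.07. The averages of miR-145 (-7.46), miR-143 (-5.17), miR-199a-5p (-1.99) and miR-199a-3p (-0.836) were inside that range, and that of miR-214 (-7.91) was just under it. These are signals of different probes near background, so their order is no order of RNA levels.

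The probes of a miRNA were closer to each other for some miRNAs than for others. The probe means over the 6 arrays were 0.882 ± 1.99 and 0.415 ± 1.26 for miR-199a-5p, 1.42 ± 1.51 and 2.17 ± 0.995 for miR-199a-3p, and -5.51 ± 1.16 and -5.05 ± 1.56 for miR-214 (SD, n = 6 arrays). The probe means of miR-145 were -5.20 ± 1.04 and -4.44 ± 1.37 (SD, n = 6 arrays). For all 5 miRNAs the array ranges of the probes overlapped, although the second miR-145 probe was the higher on 6 of 6 arrays. The probes of miR-143 differed. The first, with a mean of -3.63, read -2.60, -3.22 and -2.81 on the 3 controls and -6.03, -4.91 and -2.22 on TGFβ 1, 2 and 3. The second, with a mean of -1.44, read -0.742, -3.66 and -4.33 on the 3 controls and -1.98, 1.39 and 0.686 on TGFβ 1, 2 and 3. Thus 2 of the 3 TGFβ arrays were the lowest for the first probe and 2 were the highest for the second, and no direction for miR-143 can be read from their mean. The highest mean of any probe on any array was 4.75, for a miR-199a-5p probe on control 1 with 8 spots used, and the other miR-199a-5p probe read -0.674 on that array.

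With the outlier-marked spots included, 6 of the 600 readings carried the flag, and 0 probes reached the share of 0.5. These 6 readings fell on 4 of the 5 miRNAs, with miR-143 having none, and at least 1 such spot was seen for 68.2% of all mouse entries (38.1% without outlier spots, where the 5 miRNAs had none). By array they were 1 on control 1, 2 on control 2, 3 on TGFβ 3 and 0 on the others. Of the 434 negative control spots, outliers included, 15, 5 and 2 were flagged on controls 1 to 3, against 0, 14 and 23 on TGFβ 1 to 3. Both counts were highest on TGFβ 3, but the other arrays did not follow the same order. TGFβ 2 had 14 flagged negative control spots and 0 of the 6 readings. A link between the counts was not tested. One miR-145 spot on TGFβ 3 read 1661 units, while the other 9 spots of that probe on the array ran from -11.4 to 0.992. The remaining 5 readings were between 26.1 and 36.1 units.

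**Figure D3:**
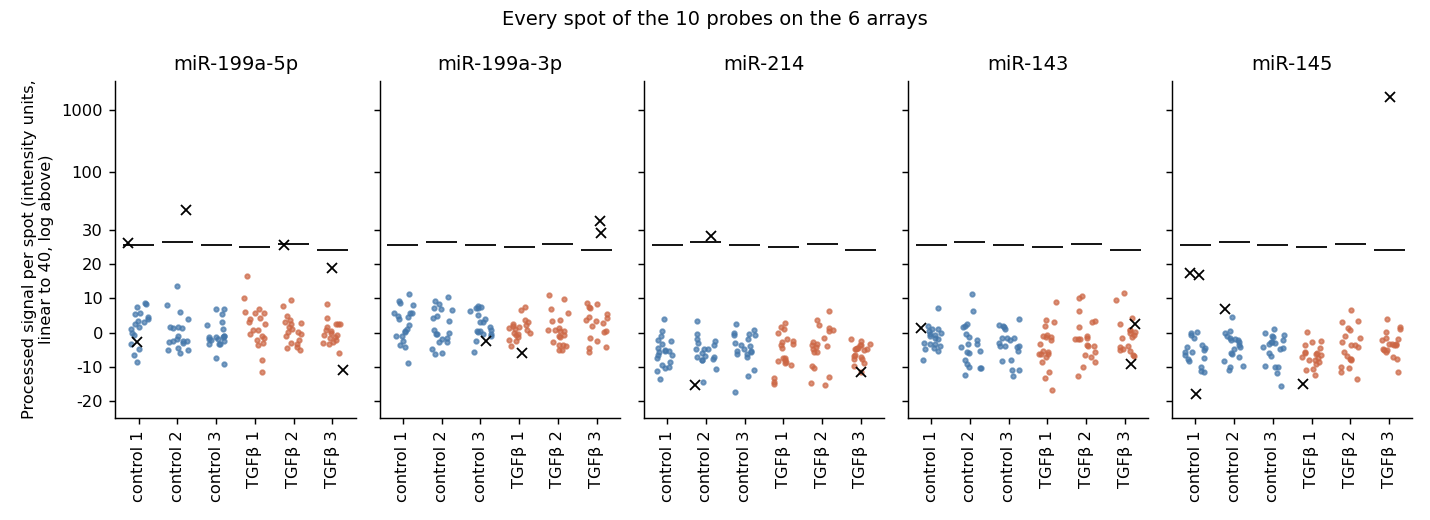
Processed signal of every spot (y axis, intensity units, linear to 40 and logarithmic above) by array (x axis), blue for control and orange for TGFβ, with crosses for spots marked as outliers. Black bars mark the dimmest flagged spot of the array. All readings above the bars are crosses, including the single miR-145 spot at 1661 on TGFβ 3.

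The question put by the comparison was whether 72 hours of TGFβ changed these miRNAs, and no difference was detectable at the signals measured. The differences between the groups, relative to negative controls, ran from -0.788 to 0.738 units with standard errors between 0.658 and 1.44, 4 of them positive and 1 negative. The groups overlapped for 5 of 5 miRNAs. Groups that did not overlap were found for 9.49% of all 611 entries and for 8.73% of the 504 entries under the limit. Overlap was thus what most entries showed, and its presence in 5 of 5 is no result about these miRNAs. With 3 arrays against 3 the exact test cannot give a p below 0.1. For the 504 entries under the limit the same difference had a median of 0.181 and ran from -1.79 (5th percentile) to 2.72 (95th percentile), and the 5 miRNAs lay inside that range.

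**Figure D4:**
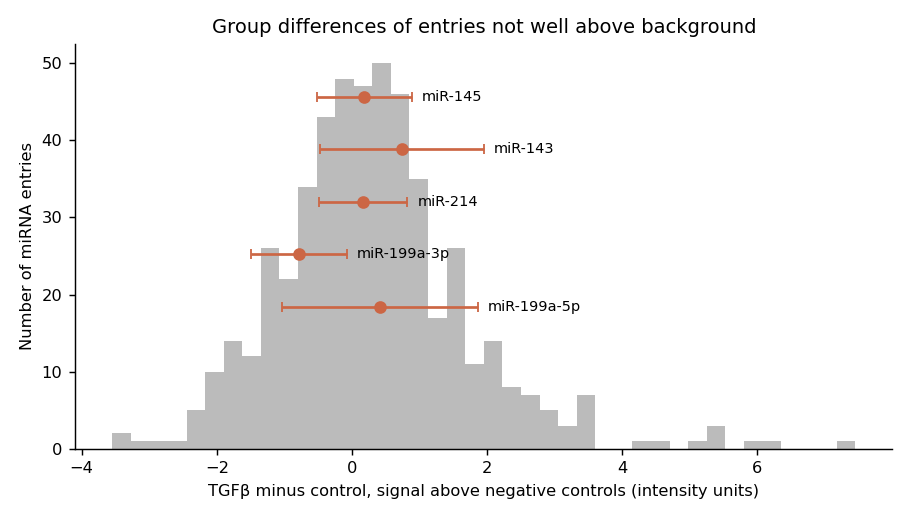
Difference in signal relative to negative controls between TGFβ and control (intensity units, x axis). The grey histogram counts the 504 mouse entries not well above background on any array, and the points with bars are the 5 miRNAs with their standard errors, placed at arbitrary heights. The points lie between -0.788 and 0.738, within the bulk of the histogram.

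The slide positions given in the file headers put control 1 and TGFβ 2 in slide column 1, and control 2 and TGFβ 3 in column 2. All 3 controls and TGFβ 1 were in slide row 1, and TGFβ 2 and 3 in row 2. Each difference within a column therefore also sets row 2 against row 1, and the 2 cannot be told apart. TGFβ minus control within these columns was -2.28 and 0.169 units for miR-199a-5p, -2.60 and 0.655 for miR-199a-3p, and -1.04 and 2.84 for miR-143. It was 0.614 and 0.0520 for miR-214, and 0.464 and 0.906 for miR-145. For miR-199a-5p, miR-199a-3p and miR-143 the columns thus gave opposite signs.

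The miRNAs could not enter a fit that is limited to detected entries. That fit, with limma on the 84 entries that every array of either group placed well above background, called 0 of 84 (0%) at an adjusted p under 0.05, with 8 at an unadjusted p under 0.05. With all 611 entries, and so with the 5 miRNAs, limma called 0 (0%), with 21 at an unadjusted p under 0.05. In that fit miR-214, miR-143 and miR-145 sat at the floor of 1 unit on 6 of 6 arrays and carry no information. miR-199a-3p had an adjusted p of 0.976 and miR-199a-5p one of 1 (limma, Benjamini-Hochberg over 611 entries), with 2 and 4 arrays at the floor. Without control 1, 29 of 85 detected entries passed in limma (34.1%), and with the replicate number as a block 1 of 84 did (1.19%). The 5 miRNAs were in neither of these fits. In limma on all 611 entries 0 of 611 passed without control 1 (61 at an unadjusted p under 0.05) and 0 of 611 with the replicate block (31), and the 5 miRNAs were among the entries of both fits. With the replicate block miR-199a-3p was lower with TGFβ at an unadjusted limma p of 0.0303 (adjusted p = 0.843). It had 2 arrays at the floor in that fit.

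Other arms of the same genes were also under the limit. The array lists miR-199b*, miR-214* and miR-145*, and each was well above background on 0 of 6 arrays. miR-199b* ran from -0.569 to 1.74 units, miR-214* from -5.94 to 1.07 and miR-145* from -0.154 to 3.47. For miR-214* and miR-145* the highest array was TGFβ 3, where 1 spot each, not marked as an outlier, was flagged, that of miR-214* at 30.2 units. That is 1 of 119 readings used for either entry.

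Epithelial miRNAs were under the limit as well, while some fibrosis-linked miRNAs were above it. Of 7 epithelial entries (the miR-200 family with miR-141 and miR-429, miR-203 and miR-205), 0 were well above background on any array, although the label calls the cells tubular. Of 11 kidney tubule entries 5 were well above background on at least 1 array, against 107 of all 611 entries (17.5%). Among them miR-10a, miR-10b and miR-30a were so on all 6, and miR-192, miR-194, miR-204, miR-215, miR-30b and miR-30e were on none. The lists for endothelium (2 entries) and blood cells (6 entries) had 0 on any array. Of 6 striated muscle entries, miR-206, which is made in skeletal muscle, was well above background on 1 control and 3 TGFβ arrays. Its scaled log2 difference was 0.603 (limma, adjusted p = 0.391), so no change was called.

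Of 12 other miRNAs that are prominent in mesenchymal cells, 4 were well above background on all 6 arrays, as were 70 of all 611 entries (11.5%). The other 8, among them miR-100, miR-127, miR-152 and miR-218, were so on 0 arrays. miR-21, which is raised in injured kidney, read 3870, 1815 and 1878 units on controls 1 to 3, against 4297, 3300.5 and 4362 on TGFβ 1 to 3. These are intensities before scaling, and the scaled log2 difference of miR-21 was 0.398 (limma, adjusted p = 0.433), so no change was called. The others above background were miR-22, miR-31 and miR-125b-5p. Of 13 miRNAs reported in TGFβ responses or renal fibrosis 5 were well above background on all 6 arrays, namely miR-21, miR-29a, miR-29b, miR-29c and miR-155, and the other 8 were so on 0 arrays. The miR-29 family represses collagen mRNAs.

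**Figure D5:**
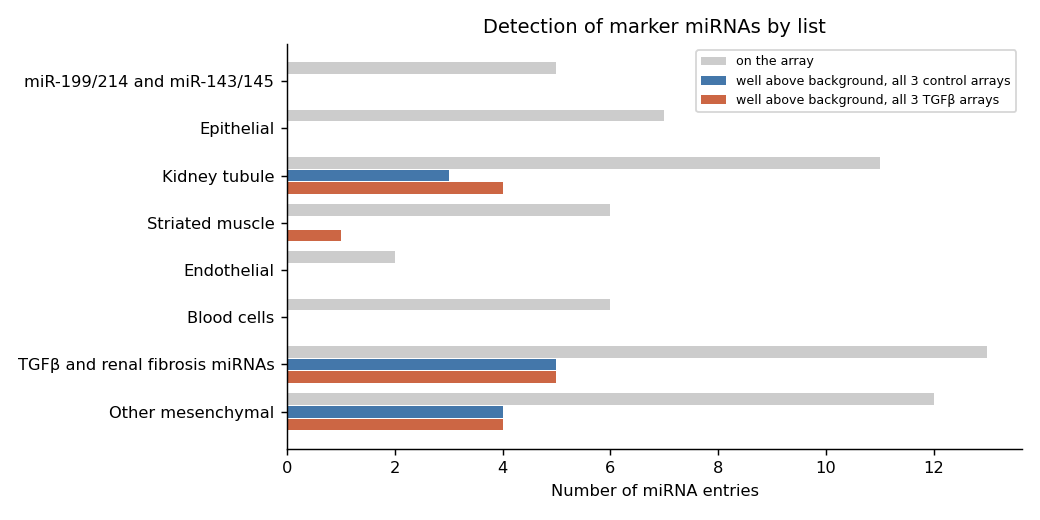
Number of miRNA entries (x axis) per list: on the array (grey), well above background on all 3 control arrays (blue) and on all 3 TGFβ arrays (orange). The list of miR-199a, miR-214, miR-143 and miR-145 has 5 entries on the array and 0 in either group, as has the epithelial list with 7, while 4 of 12 other mesenchymal entries are detected in both groups.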

How the data were processed

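Each array's deposited file lists a processed fluorescence intensity for every spot, from which Agilent Feature Extraction had already subtracted background, per the file headers. Arrays had not been brought to a common scale. The headers give version 10.7.3.1 and the submitters' processing notes 10.1.1, which disagree. The values deposited for the series were identical to these intensities (largest difference 0). Per the labels' protocols, Cy3 labelling started from 100 ng of RNA. Flags for outliers and for spots well above background are other deposited columns, per the file headers, and 0 spots were saturated.

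Spots were averaged per probe without outlier-marked spots, then probes per miRNA. For each array the mean of its negative control spots was subtracted, with no scaling, and groups were compared by exact permutation tests (scipy 1.17.1). The fits used limma 3.58.1 in R 4.3.3 on log2 signals after division by the 75th percentile of 105 probes detected on all arrays, with a floor of 1 unit. The test scripts were checked on simulated data. Figures used matplotlib 3.10.9.

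The miRNAs and lists were chosen with earlier results of these data known. Named entries were the 5 miRNAs, other arms of their genes, entries sharing a seed, and up to 4 detected examples per list. Patterns like theirs were to be sought only for a miRNA detected on at least 1 array, and none was. Alternatives changed outlier handling, averaging, scaling, the detection rule, the filter, the floor, blocks and the arrays used.

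Groups share replicate numbers in the titles, and the labels do not say what a number means. Over 84 detected miRNAs the deviations from the group means correlated between same-numbered arrays with r of 0.383, 0.373 and 0.521 (across miRNAs, which are not independent replicates), so the numbers were treated as pairs in an alternative.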

Additional observations from a re-analysis of the deposited data

Results flagged for a closer look

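A single miR-145 spot on TGFβ 3 read 1661 units. It was left out of the comparisons because the software marked it as an outlier and, alone among the 600 readings of these miRNAs, as non-uniform. The brightest negative control spot on that array, outliers included, read 97.3, and the highest of the other 119 miR-145 readings was 17.3. The median pixel of the bright spot was 153.7, against 122 to 137.5 for the other 9 spots of the probe. With that spot kept, the miR-145 signal on TGFβ 3 was 79.9 units in place of -3.38, and the cause of the spot was not tested.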

How the results depend on the processing

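The count of 0 of 5 miRNAs well above background was the same with any 1 spot flagged and with the 99th percentile of negative controls as the limit. It was also the same with the software's own call and with outlier spots kept. Leaving out single arrays could not change it, since the count was 0 on each array. Of 70 alternative values for the 5 group differences, 56 kept their sign and 14 did not. The 56 include the replicate block, which could not change a sign. The difference turned to -0.897 with the brighter probe and to -2.28 within slide column 1 for miR-199a-5p. It turned to 0.132 with outlier spots kept and 0.655 within column 2 for miR-199a-3p. It turned to -0.391 with outlier spots kept for miR-214, to -1.04 within column 1 for miR-143, and to -0.478 with the median over spots for miR-145. With the brighter probe alone the difference grew to 2.97 for miR-143 and 1.27 for miR-214 (exact permutation p = 0.2 each). With outlier spots kept the miR-145 difference was 27.1, from the spot at 1661. Scaling multiplies values below 0 too, and with it the differences of miR-214, miR-143 and miR-145 were 2.15, 2.31 and 2.09. Without single arrays the differences ran from -0.338 to 1.61 for miR-199a-5p, -1.30 to -0.226 for miR-199a-3p, -0.262 to 0.628 for miR-214, 0.172 to 1.76 for miR-143 and -0.283 to 0.846 for miR-145. The replicate block cannot move a mean difference in this balanced design (0.414, -0.788, 0.163, 0.738 and 0.179 in the order above). Its exact sign-flip test over 3 pairs cannot give a p below 0.25, so it could make no call.

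Over all detected entries the limma count of 0 became 1 with the replicate block and 3 with the slide row as a block, and ran from 0 to 29 without single arrays, 29 without control 1. On all 611 entries it was 3 with normexp, an alternative added after seeing the data, and from 0 to 1 without single arrays. With normexp the median difference of all 611 entries was -0.26 on the log2 scale. The 5 miRNAs were in 9 of the limma fits, with adjusted p from 0.292 to 1. Their smallest unadjusted p was 0.00521, for miR-199a-3p without TGFβ 3 (limma, adjusted p = 0.292). In that fit both remaining TGFβ arrays sat at the floor for it. In 8 of the 9 fits, miR-214, miR-143 and miR-145 sat at the floor on every array used and could not pass, so those fits say nothing about them. The cause of these changes was not tested. The limit, between 24.3 and 26.5 units by array, applies to single spots. The dimmest probe mean that counted as well above background was 22.4, on TGFβ 3. RNA too scarce to meet the detection rule was not called, and absence is not shown.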
